A study of Mus musculus with 7 samples.

Results

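The proteins that pass the LPS signal from Toll-like receptor 4 (TLR4) into the macrophage form a short chain, and the RNA levels of 10 genes of that chain are described here. They were chosen by symbol: the co-receptors Cd14 and Ly96, the adaptors Myd88, Tirap, Ticam1 and Ticam2, and the kinases Irak1, Irak2, Irak3 and Irak4. All 10 were found among the 48440 genes of the LPS table and among the 55352 genes of the AAV table. RNA was sequenced from mouse bone-marrow-derived macrophages (BMDMs), which were grown from wild-type C57BL/6 bone marrow with the growth factor M-CSF. In the first experiment they were untreated (0 h) or given LPS, the endotoxin of Gram-negative bacteria, at 100 ng per mL for 2 h or 4 h, and each time point was a single library (n = 1). The second experiment used BMDMs that carried an adeno-associated virus (AAV) that expressed GFP or Shisa3, a transmembrane protein, for 48 h, with 2 samples per group. The CAG promoter of the vector is active in most cell types. Both AAV groups held a virus, and no LPS was named for them. The study's methods give young adult mice of both sexes. Nothing states that the 2 samples of a group came from separate cultures, so p-values measure the spread between these samples, which may be technical.

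CD14 catches LPS and hands it to MD-2, the product of Ly96, which binds the outer domain of TLR4 and holds the lipid of LPS in its own pocket. At the plasma membrane TIRAP bridges the receptor to MyD88, which gathers IRAK4, IRAK1 and IRAK2 into the myddosome that drives NF-κB and MAP kinase signaling, whereas IRAK-M, the product of Irak3, holds this complex back. From endosomes TRAM, the product of Ticam2, couples TLR4 to TRIF, the product of Ticam1, which leads to IRF3 and type I interferon.

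Read totals of the LPS libraries were 15588502 (0 h), 7263258 (2 h) and 32659392 (4 h), so the 2 h library was the shallowest. The depth of the AAV samples is unknown. All 8 macrophage markers listed were detected in every AAV sample, with summed levels of 34054 to 37144 TPM. TPM is transcript abundance per length, scaled to one total per sample. The summed T, B and NK cell markers did not exceed 0.23 TPM. Those of fibroblasts were at 9.42 to 16.4 TPM, of dendritic cells at 2.5 to 4.2 TPM and of neutrophils at 564.53 to 1089.54 TPM. Shisa3 itself was at 7.88 and 10.85 TPM with AAV-GFP and at 12.31 and 17.81 TPM with AAV-Shisa3. Its log2 difference of 0.63 did not pass the test (limma, adjusted p = 0.138). In the LPS libraries Shisa3 had 1 read at 0 h, 164 at 2 h and 3174 at 4 h.

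Promoter windows, from 250 bases before the RefSeq start to 50 bases after it (GRCm38.p6), were found for 7 of the 10 genes. They were searched on both strands, before the start, for κB, the interferon-stimulated response element core (GAAA, any 2 bases, GAAA), AP-1 (TGANTCA) and the E-box (CACGTG). The 3 stretches printed belong to the adaptors of the MyD88 and TRIF branches and to Irak2, the gene with the largest difference at 4 h of LPS, and any capitals mark a motif match. Myd88 lies on chr9:119340042-119340168, minus strand, Ticam1 on chr17:56276787-56276917, minus strand, and Irak2 on chr6:113638317-113638466, plus strand. Bases of annotated exons were left out, so the Myd88 and Ticam1 stretches end 24 and 20 bases before the start. In the GENCODE M21 annotation the Myd88 gene reaches to chr9:119341411, so its stretch lies inside the annotated gene.
Myd88: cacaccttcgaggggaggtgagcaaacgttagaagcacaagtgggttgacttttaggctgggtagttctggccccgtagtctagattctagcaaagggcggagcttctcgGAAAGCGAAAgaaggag
Ticam1: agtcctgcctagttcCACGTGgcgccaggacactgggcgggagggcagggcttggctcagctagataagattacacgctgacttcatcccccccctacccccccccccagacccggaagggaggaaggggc
Irak2: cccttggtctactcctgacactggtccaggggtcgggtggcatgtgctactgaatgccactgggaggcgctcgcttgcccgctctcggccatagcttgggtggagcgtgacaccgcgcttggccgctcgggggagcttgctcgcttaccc
The Myd88 stretch held the interferon-stimulated response element core GAAAGCGAAA, which began 40 bases before the start. Of all 32851 windows, 2.98% held that core. The Ticam1 stretch held an E-box 135 bases before the start, a motif of 6.02% of windows. Irak1 held a κB match, GGGACGCCCC, 21 bases before its start, and κB was found in 7.25% of windows. The windows of Irak2, Irak3, Irak4 and Tirap held none of these motifs, and none of the 7 genes held AP-1, which 6.75% of windows did. A match is a description of letters and not a site, and a window without one says nothing about the factor.

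To see how LPS changed the RNA of its own receptor chain, the 3 time points were compared. By 4 h Cd14, Myd88, Irak2 and Irak3 stood far above 0 h, Ly96, Tirap and Ticam1 stood about 1 log2 unit above it, and Ticam2, Irak1 and Irak4 stood below it. With 1 library per time point these differences have no replicate check and no test. Values are the deposited signal, reads over a scaling factor of the library, and log2 differences were taken on signal + 1, with 95% exact counting intervals that cover counting error only. The comparisons of 2 h and 4 h with 0 h share the 0 h library. In bulk RNA, fewer cells of a type and less RNA per cell cannot be told apart.

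Of the co-receptors, the signal of Cd14 was 2841 before LPS, 32037 after 2 h and 17508 after 4 h. Its log2 difference from 0 h was 3.49 (interval 3.45 to 3.54) at 2 h and 2.62 (interval 2.58 to 2.67) at 4 h, so Cd14 was highest at 2 h and was 0.87 log2 units lower at 4 h than at 2 h, a log2 difference of -0.87. Ly96 behaved otherwise, with a signal of 137 before LPS, 131 after 2 h and 277 after 4 h. Its log2 difference was -0.064 at 2 h, where the interval of -0.50 to 0.35 included 0 and the library held only 60 reads of the gene, and 1.01 (interval 0.78 to 1.25) at 4 h. Tlr4, the receptor of both, had a signal of 2183, 1094 and 1464 and so was lower at both times, by log2 differences of -0.996 and -0.58. With libraries centred on their medians these were -0.68 and -0.20, and with library totals -1.66 and -1.40.

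Of the adaptors, Myd88 had a signal of 847 before LPS, 5470 after 2 h and 6348 after 4 h, with log2 differences of 2.69 (interval 2.60 to 2.79) and 2.91 (interval 2.82 to 2.99). It was therefore close to its 4 h level by 2 h. Tirap, which recruits MyD88 to the membrane, had a signal of 250, 496 and 533, with log2 differences of 0.99 (interval 0.75 to 1.23) at 2 h and 1.09 (interval 0.92 to 1.27) at 4 h. The TRIF branch split. Ticam1 had a signal of 224, 297 and 498, and its log2 difference went from 0.40 (interval 0.11 to 0.69) at 2 h to 1.15 (interval 0.97 to 1.33) at 4 h, whereas Ticam2 had a signal of 384, 323 and 293, with log2 differences of -0.25 (interval -0.52 to 0.013) and -0.39 (interval -0.56 to -0.22).

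Of the kinases, Irak2 had a signal of 544 before LPS, 4463 after 2 h and 5084 after 4 h, and its log2 difference of 3.22 (interval 3.12 to 3.33) at 4 h was the largest of the 10 genes at that time. Irak3 had a signal of 441, 1398 and 3924, with log2 differences of 1.66 (interval 1.51 to 1.82) at 2 h and 3.15 (interval 3.04 to 3.27) at 4 h. The gene of the inhibitory family member thus came later: between 2 h and 4 h Irak3 differed by 1.49 log2 units and Irak2 by 0.19. Irak4, the kinase that starts the cascade, had a signal of 810, 585 and 412, with log2 differences of -0.47 (interval -0.66 to -0.28) and -0.97 (interval -1.11 to -0.84). Irak1, which IRAK4 phosphorylates, had a signal of 746, 736 and 528, with log2 differences of -0.019 (interval -0.20 to 0.16) and -0.50 (interval -0.62 to -0.37).

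**Figure D1:**
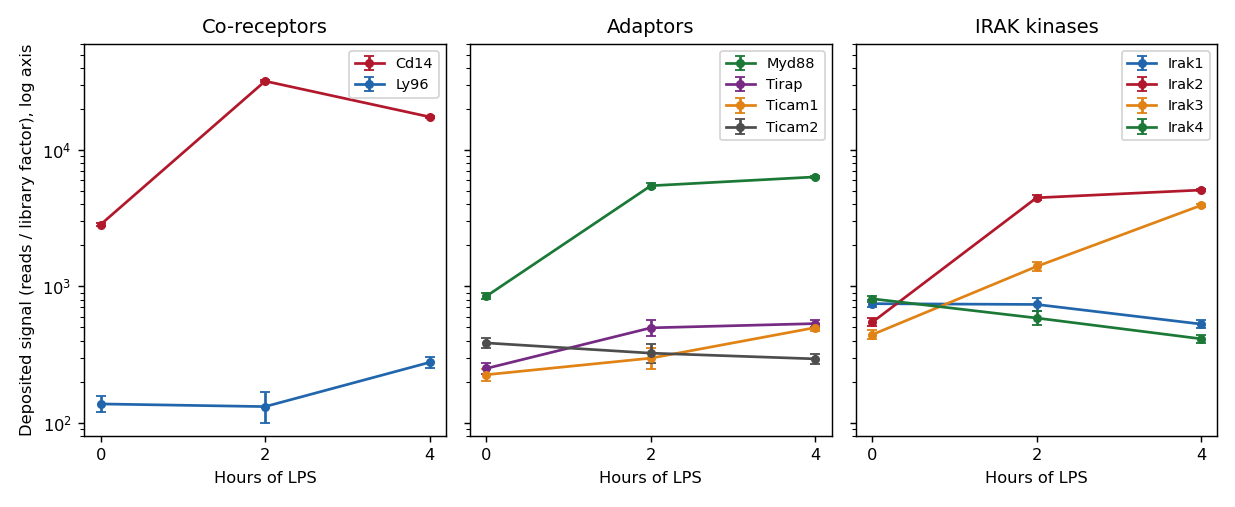
Deposited signal of the 10 genes (log axis, reads over a library factor) against hours of LPS, by role, with 1 library per time point and bars that give 95% exact counting intervals. Cd14 was highest at 2 h (32037), Irak3 went on from 1398 at 2 h to 3924 at 4 h, and Irak1, Irak4 and Ticam2 ended below their 0 h values.

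Counted by a difference of at least 2-fold, 4 of the 10 genes were higher and 0 lower at 2 h, and 7 were higher and 0 lower at 4 h. Among 17854 genes with a mean of at least 1, 20.5% were higher and 24.7% lower at 2 h, and 22.2% were higher and 23.6% lower at 4 h. The members' median log2 difference was 0.69 at 2 h and 1.12 at 4 h, against -0.050 and -0.044 over all genes. With reads scaled to library totals the members' median was 0.035 at 2 h and 0.30 at 4 h, against -0.70 and -0.82 over all genes. From 2 h to 4 h, 2 genes (Ly96 and Irak3) were at least 2-fold higher and 0 lower, against 17.9% and 15.2% of all genes. At 4 h Ly96 (1.01) lay just inside the fold and Irak4 (-0.97) just outside it, and at 2 h Tirap (0.99) lay just outside.

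The scaling bears on the size of all the differences from 0 h, beyond their counting intervals, and on the direction of the smaller ones. With reads scaled to library totals Cd14 at 4 h was at 1.80, Myd88 at 2.08, Irak2 at 2.40 and Irak3 at 2.33, and at 2 h Irak3 was at 1.00 and Tirap at 0.33. In that scaling the median of all genes at 4 h went from -0.044 to -0.82 and the calls over all genes to 13.8% higher and 44.3% lower. At 4 h Ly96, Tirap and Ticam1 then fell short of the fold at 0.19, 0.27 and 0.32, and Ticam2, Irak1 and Irak4 passed it at -1.21, -1.32 and -1.80. In the same scaling Ticam1 at 2 h was at -0.26, so its direction turned. When each library was centred on its median, Ly96, Ticam2 and Irak1 at 2 h were at 0.25, 0.065 and 0.29. Their direction turned as well. All genes then had a median of 0.26 at 2 h, with 26.9% higher and 19.3% lower. In that scaling Ticam2, Irak1 and Irak4 at 4 h were at -0.015, -0.12 and -0.60, against a median of 0.33 over all genes. Little was left of the differences of Ticam2 and Irak1 from 0 h, though both stayed below that median. Cd14, Myd88, Irak2 and Irak3 were at least 2-fold higher at both times in every scaling tried. Ranked among all genes, which takes out most of a common shift, Ly96 stood at the 78.0th percentile at 4 h with the deposited factors and at the 76.7th with library totals, and Irak4 at the percentiles of 24.0 and 23.3.

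**Figure D2:**
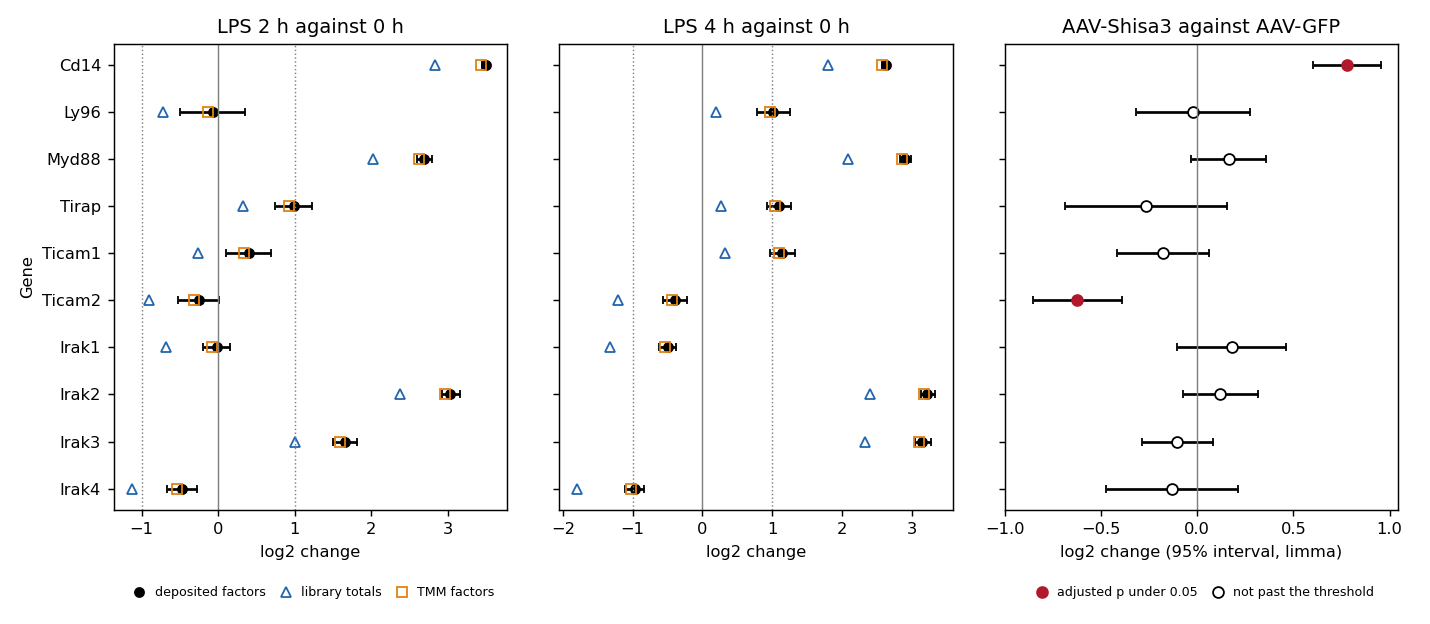
Log2 differences of the 10 genes at 2 h and at 4 h of LPS against 0 h (left and middle; black points with 95% exact counting intervals use the deposited factors, triangles library totals, squares edgeR's TMM factors; dotted lines mark 2-fold) and of AAV-Shisa3 against AAV-GFP (right; 95% intervals from limma, on a narrower axis). Cd14, Myd88, Irak2 and Irak3 lie right of 0 under each scaling of the LPS libraries, and Cd14 and Ticam2 are the 2 genes past the threshold in the AAV panel.

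Levels of different genes were compared per length, as reads per kilobase of the main annotated transcript scaled to one common total within each library. At 0 h the order ran from Cd14 (299) through Myd88 (74.5), Irak4 (49.4), Ly96 (37.4), Irak1 (33.6), Irak2 (29.3), Irak3 (24.6), Ticam2 (15.8) and Ticam1 (12.9) to Tirap (9.38). By 4 h Irak2 (163) and Irak3 (130) had taken the places behind Cd14 (1092) and Myd88 (331), and Irak4 (14.9) and Irak1 (14.1) stood seventh and eighth. Ticam2 (7.14) was last. There was no spread between libraries to set against neighbours in this order, and with the union of all exons as length 6 of the 10 genes kept their place at 0 h. At 4 h Irak1 (14.7) and Tirap (14.2) then stood above Irak4 (10.8), so the order of these 3 genes was not settled.

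The ratio of 2 genes within a library does not depend on its scaling factor, so the kinases and adaptors were also set against each other, in pairs chosen after the values were seen. Irak2 stood at 0.595 times the level of Irak4 per length at 0 h (interval 0.544 to 0.649), at 6.76 times at 2 h and at 10.9 times at 4 h (interval 10.2 to 11.8). Irak3 went from 0.498 times Irak4 at 0 h to 2.18 times at 2 h and 8.71 times at 4 h. Both inducible kinases were therefore below Irak4 at 0 h and above it at 2 h and 4 h, also with union lengths, where the 0 h ratios were 0.764 and 0.744. Between the inducible kinases the balance moved and came back: Irak3 stood at 0.838 times Irak2 at 0 h, 0.323 times at 2 h and 0.796 times at 4 h. Myd88 stood at 5.76 times Ticam1 at 0 h, 28.1 times at 2 h and 19.5 times at 4 h. Within the TRIF branch Ticam1 went from 0.821 times Ticam2 at 0 h to 1.29 times at 2 h and 2.38 times at 4 h. With union lengths these ratios were 1.13, 1.78 and 3.28, so which of the pair was higher at 0 h depended on the length used. For the co-receptors, Cd14 stood at 7.98 times Ly96 at 0 h, 94.2 times at 2 h (interval 73.1 to 123) and 24.4 times at 4 h. With union lengths these ratios were 12.2, 144 and 37.3, and in both the 2 h ratio was the highest of the 3.

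**Figure D3:**
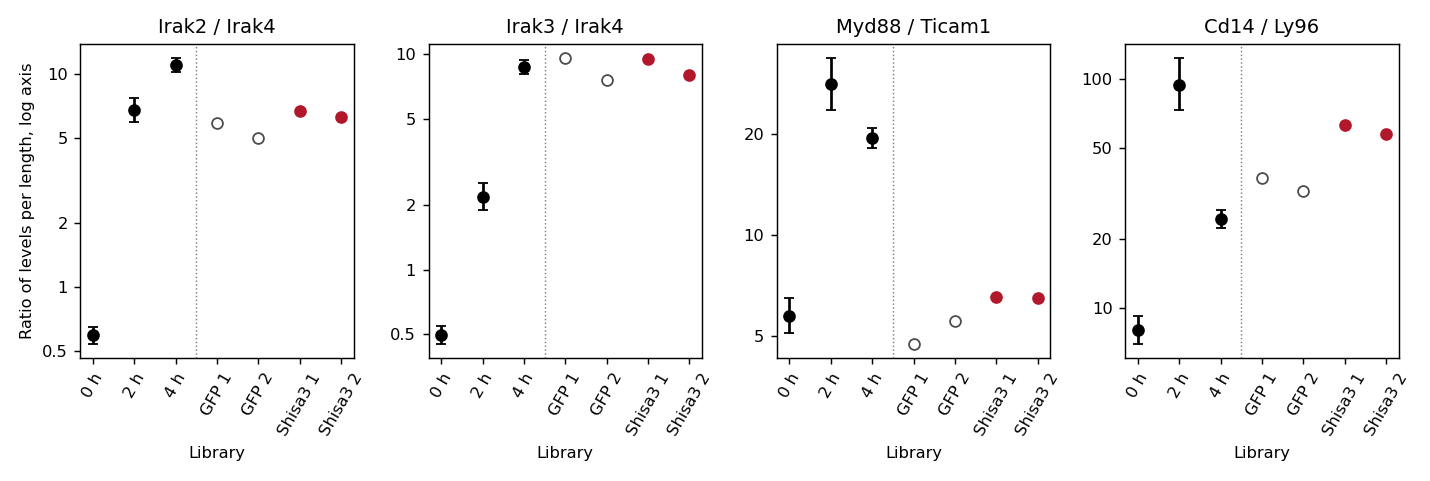
Ratios of levels per length within each library (log axes that differ between panels): LPS 0 h, 2 h and 4 h in black with 95% exact counting intervals, and the AAV samples as open (AAV-GFP) and red (AAV-Shisa3) points, divided by a dotted line because the tables were normalized separately. Irak2 over Irak4 and Irak3 over Irak4 are below 1 at 0 h (0.595 and 0.498) and above 1 in the other 6 libraries, and Cd14 over Ly96 is higher in both AAV-Shisa3 samples than in both AAV-GFP samples.

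To see whether Shisa3 moved this chain where no LPS was named, the AAV samples were compared. Cd14 rose with AAV-Shisa3, Ticam2 fell, and the other 8 genes did not pass the test. Cd14 was at 734.8 and 711.71 TPM with AAV-GFP and at 1199.14 and 1281.86 TPM with AAV-Shisa3, means of 723 ± 16.3 and 1240.5 ± 58.5 TPM (SD, n = 2). The groups did not overlap, and the log2 difference, on log2(TPM + 1), was 0.78 ± 0.072 (SE; 95% interval 0.60 to 0.95; limma, adjusted p = 0.0153). Ticam2 was at 24.12 and 24.1 TPM with AAV-GFP and at 15.5 and 15.14 TPM with AAV-Shisa3. Both AAV-Shisa3 samples were below both AAV-GFP samples, and the log2 difference was -0.62 ± 0.094 (SE; 95% interval -0.85 to -0.39; limma, adjusted p = 0.0279). Both calls depend on the number of samples and on the test: with any 1 of the 4 samples left out the adjusted p was 0.0708 to 0.173 for Cd14 and 0.119 to 0.187 for Ticam2, and in limma without a trend it was 0.0557 and 0.0576, and with no filter on low genes 0.105 for both.

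The 838 bases that the main transcript of Ticam2 shares with Tmed7 on the same strand could not be assigned to either gene from these values. Tmed7, a cargo receptor gene, was at 91.65 and 110.61 TPM with AAV-GFP and at 95.16 and 111.95 TPM with AAV-Shisa3, and its log2 difference of 0.035 did not pass the test (adjusted p = 0.878, limma). In the LPS libraries Tmed7 had a signal of 708, 956 and 1368 and Ticam2 one of 384, 323 and 293, with the deposited factors. Myd88 shares 223 bases with Acaa1a, Tirap 446 with Gm39318, Irak2 196 with Gm43963 and Irak3 70 with Tmbim4, all on the opposite strand. Irak1 shares 67 bases with Mir718 on the same strand. Tirap, Irak1 and Irak3 each overlap 2 genes, of which the larger overlap is given. Whether reads were counted by strand is not given in the sources used here.

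Of the other members, Ly96 was at 19.86 and 21.92 TPM with AAV-GFP and at 18.94 and 22.27 TPM with AAV-Shisa3. These values overlapped, and the interval of the log2 difference was -0.32 to 0.27. For Myd88 the samples were at 216.33 and 228.36 TPM against 260.3 and 238.64 TPM, which did not overlap, but the log2 difference of 0.16 did not pass the test (interval -0.030 to 0.36; limma, adjusted p = 0.236). Tirap was at 17.81 and 25.03 TPM against 16.56 and 18.25 TPM, and its interval of -0.69 to 0.15 was the widest of the 10. Ticam1, the partner of Ticam2, was at 45.5 and 41.26 TPM against 39.82 and 36.59 TPM, with both AAV-Shisa3 samples below and a log2 difference of -0.18 (interval -0.42 to 0.060; limma, adjusted p = 0.283).

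The kinases lay close together between the groups. Irak2 was at 128.28 and 140.27 TPM with AAV-GFP and at 143.99 and 147.6 TPM with AAV-Shisa3, a log2 difference of 0.12 (interval -0.075 to 0.31). Irak3 was at 210.85 and 214.03 TPM against 205.68 and 190.36 TPM, a log2 difference of -0.10 (interval -0.29 to 0.082). For both genes the samples of the groups did not overlap, and neither passed the test (limma, adjusted p = 0.366 and 0.410). The direction of Irak3 turned to 0.014 when samples were centred on their medians. Irak1, at 33.95 and 40.47 TPM against 40.33 and 43.99 TPM, and Irak4, at 21.98 and 28.03 TPM against 21.61 and 23.63 TPM, overlapped between the groups, with intervals of -0.10 to 0.46 and -0.47 to 0.21. These intervals leave room for changes that 2 samples per group could not show.

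**Figure D4:**
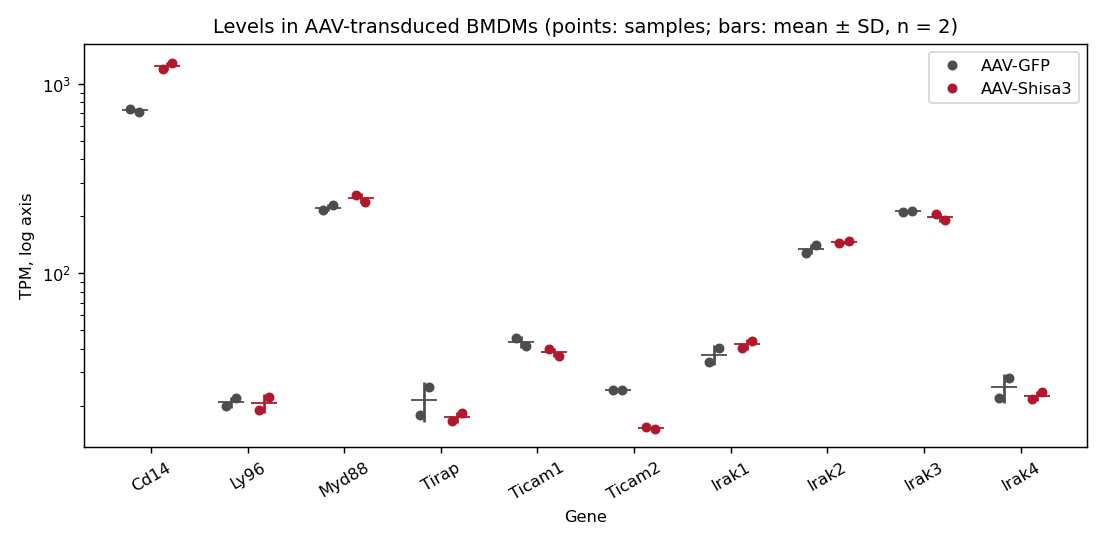
TPM of the 10 genes (log axis) in each AAV-GFP (grey) and AAV-Shisa3 (red) sample, with bars for the mean ± SD (n = 2). Cd14 is higher in both AAV-Shisa3 samples (1199.14 and 1281.86 TPM) and Ticam2 lower (15.5 and 15.14 TPM) than in both AAV-GFP samples.

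All 10 genes passed the filter of a mean of at least 1 TPM. By adjusted p under 0.05, 1 rose, 1 fell and 8 did not pass, against 2.23% of the 11218 genes tested that rose and 4.10% that fell (250 and 460 genes). With samples centred on their medians 410 of all genes rose and 230 fell, and Cd14 and Ticam2 still passed. The members' median log2 difference was -0.062, against -0.10 over all genes. Both AAV-Shisa3 samples lay above both AAV-GFP samples for 3 of the 10 genes (Cd14, Myd88 and Irak2), as for 18.2% of all genes, and below them for 3 (Ticam1, Ticam2 and Irak3), as for 41.2% of all genes. An exact permutation test of a single gene, 2 samples against 2, cannot go below p = 0.333.

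By TPM the order in the AAV-GFP group was Cd14, Myd88, Irak3, Irak2, Ticam1, Irak1, Irak4, Ticam2, Tirap and Ly96. From Irak4 to Ly96 neighbouring genes overlapped between samples, down to a mean of 20.9 TPM, and the higher places did not overlap. In the AAV-Shisa3 group Ticam2 came last, at a mean of 15.3 TPM. Irak3 stood at 9.59 and 7.64 times Irak4 with AAV-GFP and at 9.52 and 8.06 times with AAV-Shisa3, and Irak2 at 5.84 and 5.00 times against 6.66 and 6.25 times, so both inducible kinases exceeded Irak4 in every AAV sample. Cd14 stood at 37.0 and 32.5 times Ly96 with AAV-GFP and at 63.3 and 57.6 times with AAV-Shisa3. Cd14 stood at 34.0 and 31.3 times Tlr4 with AAV-GFP and at 62.7 and 68.7 times with AAV-Shisa3, and Tlr4 itself at 21.61 and 22.72 against 19.11 and 18.66 TPM (log2 difference -0.22; limma, adjusted p = 0.199). The tables were normalized separately, so ratios of the AAV samples and of the LPS libraries stand side by side here and the difference between them was not tested.

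Markers of neutrophils moved along with AAV-Shisa3. Of 8 listed neutrophil genes, 7 were higher in both AAV-Shisa3 samples, as were 18.2% of all genes tested, and none was at 0, and their summed level was 592.92 and 564.53 TPM with AAV-GFP against 1089.54 and 681.4 TPM with AAV-Shisa3. Cd14 is also expressed by neutrophils, and the part of these cells in its difference was not tested. The summed macrophage markers overlapped between the groups. Over the LPS time points the neutrophil markers summed to 1095, 1192 and 1072 on the scale per length, and the macrophage markers to 36251, 19807 and 19734, where Itgam has 2 identifiers and both were summed.

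Around the 10 genes, 55 further genes of the TLR4 pathway were counted, from a list of receptors, other adaptors, ubiquitin ligases and scaffolds, kinases, inhibitors and transcription factors. At 2 h of LPS 23 of the 55 were at least 2-fold higher and 5 lower, with a median log2 difference of 0.68, and at 4 h 23 were higher and 7 lower, with a median of 0.66. Over all genes 20.5% were higher and 24.7% lower at 2 h, and 22.2% and 23.6% at 4 h. With reads scaled to library totals the list's median was 0.019 at 2 h and -0.17 at 4 h, against -0.70 and -0.82 over all genes. In that scaling 19 of the 55 were higher at both times and 9 and 11 lower, against 13.7% higher and 40.3% lower of all genes at 2 h and 13.8% and 44.3% at 4 h. At 4 h, 7 of 14 inhibitors were higher and 3 lower, and 7 of 14 ligases and scaffolds were higher and 2 lower. Of 6 transcription factors 4 were higher and 0 lower, of 9 kinases 4 and 0, and of 3 further adaptors 1 and 1. Of 9 receptors and accessory proteins 0 were higher and 1 lower. With library totals the inhibitors had 7 higher and 4 lower, and the ligases and scaffolds 4 and 3. The transcription factors then had 4 and 1, the kinases 3 and 0, the further adaptors 1 and 1, and the receptors and accessory proteins 0 and 2. Among named genes, Tnfaip3, the ubiquitin-editing enzyme A20, had a signal of 393, 50159 and 34388 and, like Cd14, was highest at 2 h. Tnip3, an A20-binding protein gene, had a signal of 483, 30696 and 48642, and Traf1, an adaptor of TNF receptors, one of 84.3, 4885 and 4780. The interferon-stimulated genes Usp18 (205, 5601 and 13212) and Irf7 (848, 8202 and 22393) went on from 2 h to 4 h, as Irak3 and Ticam1 did.

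With AAV-Shisa3, 51 of the 55 pathway genes were tested, of which 2 rose and 1 fell, against 2.23% and 4.10% of all genes tested, with a median log2 difference of -0.069. Nfkb1, which encodes the p50 subunit of NF-κB and its precursor, was at 119.87 and 143.2 TPM with AAV-GFP and at 195.98 and 186.44 TPM with AAV-Shisa3, a log2 difference of 0.54 ± 0.103 (SE; limma, adjusted p = 0.0418). Ikbkg, the regulatory subunit NEMO of the IκB kinase, was at 36.01 and 35.7 TPM against 50.82 and 52.71 TPM, a log2 difference of 0.52 (limma, adjusted p = 0.0295). Ripk1, a kinase downstream of TRIF and TNF receptors, was at 57 and 57.26 TPM against 44.06 and 41.89 TPM, a log2 difference of -0.40 (limma, adjusted p = 0.0466). In limma without a trend, and with any 1 of the 4 samples left out, 0 of the 51 rose and 0 fell, so none of these 3 calls held there. With samples centred on their medians 4 rose and 0 fell, so the call of Ripk1 was lost. Tnfaip3 (log2 difference 0.41), Tnip3 (0.28), Usp18 (0.32), Traf1 (-0.14) and Irf7 (-0.14), which had the largest differences at 4 h of LPS, did not pass the test, with adjusted p from limma of 0.0671, 0.0937, 0.130, 0.401 and 0.333.

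Side by side, Cd14 was higher both at 4 h of LPS (2.62) and with AAV-Shisa3 (0.78), and Ticam2 was lower in both (-0.39 and -0.62). With libraries centred on their medians, however, the LPS value of Ticam2 was only -0.015, where all genes had a median of 0.33. Myd88 (2.91 and 0.16), Irak2 (3.22 and 0.12) and Irak3 (3.15 and -0.10) stood far above 0 h with LPS, and none of the 3 passed the test with AAV-Shisa3. These values come from tables normalized separately, and the difference between the experiments was not tested.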

How the data were processed

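RNA of 7 samples was sequenced in 2 experiments. Mapping to mm9 is listed in the submitters' processing notes, and the aligner, counter and annotation are not given in the sources used here. For LPS the authors deposited a signal per gene. It was read as counts divided by a library factor, since 100% of values were whole multiples of 1 step per library (within 0.01 of a step), which gave the reads. For AAV the authors deposited values read as TPM, inferred from column sums of 999778 to 999818. With 1 library per time point, a count test could not be fitted to the LPS reads.

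Members and lists were chosen with earlier results of these data known. The text names all 10 members, Tlr4 and up to 8 pathway genes: first those past the adjusted p with AAV, by size, then those with the largest difference at 4 h of LPS and a mean of at least 100. Genes with a mean of at least 1 entered the comparisons, on log2(value + 1). AAV groups were compared with limma's trended, two-sided test over all genes its p-values adjusted by Benjamini-Hochberg (threshold 0.05). The LPS threshold was a fold of 2. Counting intervals are exact at 95%. The gene test was checked on simulated data. Lengths and overlaps came from GENCODE M21 (GRCm38), matched to 99.2% of LPS identifiers. The files hold no coordinates, and none were converted between builds. Alternatives were other scalings (medians, library totals, edgeR's TMM), pseudocounts of 0.1 and 5, other filters, no trend, a replicate block, leaving out each sample, and union lengths. Same-numbered AAV samples shared deviations weakly (correlation 0.188 across 11218 genes), so the numbers were not taken as pairs. Tools were R 4.3.3, limma 3.58.1, edgeR 4.0.16, Python 3.11.15, scipy 1.17.1, pandas 2.3.3, numpy 2.4.6 and matplotlib 3.10.9.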

Additional observations from a re-analysis of the deposited data

How the results depend on the processing

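In the LPS time course, scaling the reads to library totals left 4 of the 10 genes at least 2-fold higher at 4 h and 3 lower, gave 1 lower at 2 h, and gave 1 higher and 1 lower from 2 h to 4 h. TMM factors gave 1 lower at 4 h. The other settings kept each count of members within 1.5 times its value. Centring put 2 pathway genes at least 2-fold lower at 2 h, and union lengths kept the place of 6 genes at 0 h. The lone libraries and the 2 h library's lower depth limit the smaller differences.

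With AAV, no trend gave 0 members that rose and 0 that fell, 1 and 4 of all genes, and 0 and 0 pathway genes, and no filter gave 0 in each of these counts. At an unadjusted p under 0.05 limma counted 811 genes higher and 2148 lower without a trend, and 1118 and 2411 with no filter. Centring gave 410 and 230 of all genes, 4 and 0 pathway genes, and turned Ly96 to 0.094 and Irak3 to 0.014. Leaving out 1 sample at a time gave 0 members in either direction, whichever of the 4 samples was left out, 0 to 27 of all genes that rose and 0 to 7 that fell, against at least 616 and 1263 at an unadjusted p under 0.05. The group left with 1 sample was assumed to vary like the other. The log2 difference stayed within 0.73 to 0.82 for Cd14 and -0.64 to -0.61 for Ticam2, while Ly96 ranged from -0.13 to 0.090 (0.046 without the second AAV-GFP sample) and Irak4 from -0.30 to 0.038. With the replicate number as a block, 424 of all genes rose and 851 fell, 7 pathway genes rose and 1 fell, and the adjusted p was 0.0110 for Cd14 and 0.0234 for Ticam2, so the block changed no member's call, but the samples share only a number. Cd14 and Ticam2 passed the threshold in 4 of 10 alternatives. The cause of these changes was not tested. DESeq2 was not run, since the values are not counts.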
